A study of Homo sapiens with 12 samples.

Results

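The untreated control cells of this study were the arrays whose titles begin with Mock, 3 of 12 arrays in the series. The labels give these cells as HepG2, a hepatocarcinoma line, with the agent entered as Ctrl. The other arrays carried RNA of the same line treated with glycyrrhizin, silymarin or ursodeoxycholic acid, and no value of theirs is compared here. The control cells grew in DMEM with 10% fetal bovine serum, which the labels give for every culture, and 5 µg of total RNA was amplified and labelled with Cy5 for each array. Genes were ordered by their mean log2 intensity over the 3 control arrays, with the brightest probe standing for a gene that has several, which gave an order of 13881 genes. The labels do not state whether each array had its own culture, so the spread between arrays may be technical.

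HepG2 is an established human line derived from a liver tumour and is widely used as a stand-in for hepatocytes. Hepatocytes make most plasma proteins, including albumin, transferrin, the fibrinogen chains and the apolipoproteins, under transcription factors that include the FOXA family. HepG2 cells are known to secrete many of these proteins together with alpha-fetoprotein, and to carry epithelial junctions and simple keratins. Genes that every cell uses, such as those of the ribosome, the proteasome and the respiratory chain, are commonly among the most abundant messages of a cultured line.

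The table held 27561 probes, of which 15650 carried 1 gene symbol, 0 carried several and 11911 carried none. Gene means ran from 1.65 to 15.96 on the log2 intensity scale, with a median of 6.71, and the highest deposited intensity was 65221. At 798 of the 1000 highest ranks of probes the 3 arrays held exactly the same intensity. Over all 27561 ranks 6.67% were exactly equal and 64.2% lay within 0.01 on the log2 scale. The arrays thus shared much of their distribution as deposited, most closely at the bright end, where a difference between them is mainly one of a probe's rank. The 694 brightest genes held 73.1% to 73.3% of the summed linear intensity of named genes on each array. Across genes the array pairs gave Pearson r of 0.936 to 0.949. These points share a platform and the sequence of each probe, so r describes how alike the arrays are and is not a test. The median SD between arrays was 0.34 over all genes, 0.21 over the 2777 brightest and 0.60 over the 2776 dimmest.

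Intensity depends on the probe as well as on the amount of transcript, so the order below is one of probe brightness and not of transcript abundance. No detection calls were used here. As a measured stand-in for probes with no transcript, 115 genes of families that liver-derived cultures are not known to use were pooled, namely olfactory and taste receptors, hair keratin-associated proteins, beta-defensins, lens crystallins and interferon alphas. These silent families had a median of 6.27 and a 95th percentile of 9.76. In all, 58.0% of genes lay above their median, and 11.7% (1628 of 13881) lay above their 95th percentile. The brightest 5.00% of genes were the 694 with a mean of at least 11.47, a limit with no gap around it. Just inside it were TSC2 at 11.47, HMGN3 at 11.47 and NR4A3 at 11.47, and just outside were UBR3, RTBDN and NASP, each at 11.46. Of the silent families, 6 genes lay above their own 95th percentile and 1, the beta-defensin DEFB126, lay among the brightest 5.00% at 12.05, so bright probes occurred in these families too.

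The brightest genes of the control cells included many of general cell function, and 37 of the brightest 100 belonged to a list of such genes. These lists held 761 of the 13881 genes ranked and were written with earlier results of these data known. CLIP3, a linker protein of the trans-Golgi network that binds microtubules, read 15.97, 15.93 and 15.99 on arrays 1, 2 and 3. CLTC, the clathrin heavy chain of coated vesicles, read 15.95, 15.96 and 15.95, and PSMA5, an alpha subunit of the 20S proteasome, read 15.96, 15.93 and 15.91. TMEM158, a membrane protein found as a target of Ras signalling, read 15.95, 15.91 and 15.99. All these readings lay at or close under the highest intensity in the table, 15.99 on the log2 scale, and their order among themselves was not separated by the spread between arrays. Because the arrays shared nearly all of their highest values, spreads at the top of the scale are small partly by construction.

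The other 26 of the 30 brightest genes had means between 15.75 and 15.92. Signalling and adhesion were represented by MAGED1, an adaptor of the p75 neurotrophin receptor, by GNB1, a beta subunit of heterotrimeric G proteins, and by DAG1, the dystroglycan that links the cytoskeleton to laminin. Nucleic acid binding was represented by CNBP, HNRNPAB, HNRNPA2B1 and RBM4, and chromatin by SSRP1, a subunit of the FACT histone chaperone, and RBBP7, a histone-binding subunit of several chromatin complexes. EIF4G2 of translation initiation and RPS4X of the small ribosomal subunit stood for protein synthesis, and PSMA1 was the other proteasome subunit. Energy and redox genes were COX8A and COX5A of cytochrome c oxidase, ATP5F1B of ATP synthase, SLC25A3, the mitochondrial phosphate carrier, PKM of glycolysis, TALDO1 of the pentose phosphate pathway and TXN, thioredoxin. SEC61B of the protein-conducting channel and RAB1A of transport from the endoplasmic reticulum to the Golgi belong to the secretory route. TMSB10, which binds actin monomers, ANXA1, a calcium-dependent membrane-binding protein, the cytokine MIF, the secreted IGFBP7 and TCEAL9, a protein related to elongation factor TFIIS, made up the rest.

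The largest SD among these 30 was that of TXN, which read 15.89, 15.97 and 15.63. The smallest were those of CLTC and of TMSB10, which read 15.85, 15.85 and 15.83. The median SD over the 30 was 0.05, at the end of the scale where the arrays share their values, so it says nothing of how precisely these genes were measured. No gene that is known mainly as a product of hepatocytes was among the 30.

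**Figure D1:**
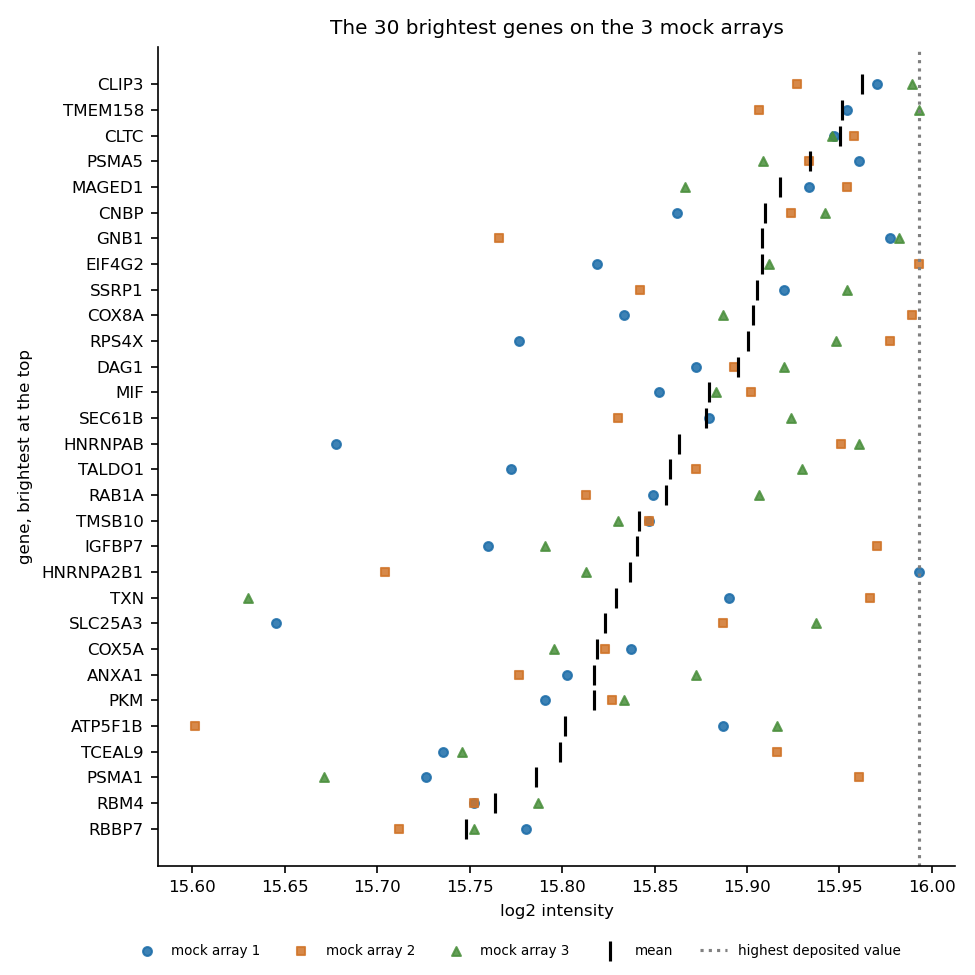
The 30 genes with the highest mean on the control arrays, with log2 intensity on a horizontal axis that does not start at 0 and 1 marker for each of the 3 arrays. The array values of neighbouring genes overlap along the whole order, from CLIP3 at 15.96 to RBBP7 at 15.75, and the largest SD is that of TXN.

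The 100 brightest genes, 0.720% of all, were sorted by hand into classes of function after their values were seen. RNA processing and binding took 14 of them, and energy metabolism and redox took 14. Cytoskeleton and adhesion took 12, signalling 12, and chromatin, DNA and transcription 11. Protein degradation, protein synthesis and vesicle traffic took 8 each, chaperones took 3, and 7 fell in no class. Only 3 of the 100 were classed as secreted proteins, namely MIF, IGFBP7 and SERPINE2, an inhibitor of serine proteases found in extracellular matrix, and none of these is a typical plasma protein of the liver. The set also held genes known for their use in neurons, chosen here after their values were seen. TUBB2B, a beta-tubulin of developing neurons whose sequence is close to that of TUBB2A, had a mean of 15.74, and GRIA2, a subunit of AMPA-type glutamate receptors, read 14.65, 14.70 and 14.64.

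The arrays largely held the same genes at this end. Any pair of arrays shared 90 to 92 of their 100 brightest genes and 645 to 652 of their brightest 694. Of the 100 genes brightest by the mean, 86 were among the brightest 100 on all 3 arrays, and of the 694, 626 were among the brightest 694 on all 3. The choice of probe moved the set more, since 74 of the 100 were kept when all probes of a gene were averaged. Within the brightest 5.00% the largest SD was 0.77, that of C1orf210, which read 13.77, 12.46 and 12.39. The next were ASB16, NBEA, CEACAM19, FAM167B, ZNF644, HARS2, PTPRN, RBM42 and LASP1, down to an SD of 0.55. Array 1 gave the highest reading for 8 of these 10 genes, array 3 for 2 and array 2 for 0. LASP1, an actin-binding adaptor, read 15.18, 14.89 and 14.12, and PTPRN, a protein of dense-core vesicles in neuroendocrine cells, read 12.58, 11.73 and 11.54.

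The start regions of bright genes were read as a feature that the ranking did not use. RefSeq windows of 300 bases on GRCh38.p14, 250 before and 50 after a gene's start, matched 11151 of the 13881 genes and 590 of the brightest 694, with the window listed first taken for the 3159 genes that have several. The 100 bases before the start are printed 5′ to 3′ on the gene's strand for the bright genes CLIP3, CLTC, PSMA5 and COX5A. They are also printed for the brightest mesenchymal markers VIM and CDH2. HPX, the brightest plasma protein gene of the hepatocyte lists, is printed for contrast in level. HNRNPA2B1 and TCEAL9 were picked because they hold TGACGT there, the only 2 of the 27 matched genes among the brightest 30 to do so. Capitals mark a motif of those named in the next paragraph, on either strand. The regions are chr19:36032874-36032973 on the minus strand for CLIP3, chr17:59619795-59619894 on the plus strand for CLTC, chr1:109426449-109426548 on the minus strand for PSMA5, chr15:74938074-74938173 on the minus strand for COX5A, chr7:26200747-26200846 on the minus strand for HNRNPA2B1, chrX:103356406-103356505 on the plus strand for TCEAL9, chr10:17228141-17228240 on the plus strand for VIM, chr18:28177131-28177230 on the minus strand for CDH2 and chr11:6440988-6441087 on the minus strand for HPX.
CLIP3: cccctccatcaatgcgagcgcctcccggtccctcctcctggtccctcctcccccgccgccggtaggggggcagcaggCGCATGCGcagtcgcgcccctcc
CLTC: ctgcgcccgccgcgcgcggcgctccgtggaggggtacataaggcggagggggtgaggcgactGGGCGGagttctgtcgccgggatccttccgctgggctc
PSMA5: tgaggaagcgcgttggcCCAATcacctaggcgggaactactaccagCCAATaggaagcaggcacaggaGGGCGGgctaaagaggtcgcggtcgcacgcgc
COX5A: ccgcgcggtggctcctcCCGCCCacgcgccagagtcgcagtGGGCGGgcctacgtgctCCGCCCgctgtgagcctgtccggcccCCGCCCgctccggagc
HNRNPA2B1: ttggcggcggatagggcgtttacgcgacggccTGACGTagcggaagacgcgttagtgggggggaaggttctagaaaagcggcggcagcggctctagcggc
TCEAL9: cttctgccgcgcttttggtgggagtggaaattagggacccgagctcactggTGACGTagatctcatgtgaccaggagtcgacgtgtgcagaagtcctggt
VIM: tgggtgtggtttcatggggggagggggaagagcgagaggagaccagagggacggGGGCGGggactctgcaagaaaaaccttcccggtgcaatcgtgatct
CDH2: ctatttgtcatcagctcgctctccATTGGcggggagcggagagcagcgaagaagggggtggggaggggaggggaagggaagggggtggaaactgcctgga
HPX: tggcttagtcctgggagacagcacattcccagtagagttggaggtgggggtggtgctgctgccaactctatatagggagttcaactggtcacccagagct

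CLIP3 holds GCATGCG on both strands in an overlapping pair, CLTC, COX5A and VIM hold the GC box GGGCGG, and PSMA5 holds GGGCGG with a pair of CCAAT boxes. HNRNPA2B1 and TCEAL9, picked for this motif, hold TGACGT, the core of the cyclic AMP response element. CDH2 holds CCAAT on the opposite strand. HPX holds none of the motifs searched in these 100 bases and no CpG, against 15 CpG for COX5A, which was the highest count among the sequences shown. These are matches of letters and say nothing about binding.

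Over whole 300-base windows and both strands, GGGCGG was present in 71.5% of the windows of the brightest 5.00% of genes and in 62.8% of all windows. TGACGT was present in 17.3% against 10.3%, CCAAT in 40.2% against 36.2% and CCGGAA, the core of ETS sites, in 28.5% against 24.1%. CACGTG, which is its own reverse complement, was present in 11.2% against 8.97%, AAGATGG, the core of YY1 sites, in 8.98% against 6.67% and GCATGCG, the core of NRF1 sites, in 7.29% against 5.28%. TATAAA and TGACTCA went the other way, with 6.78% against 8.08% and 2.71% against 3.63%. Median GC content was 65.7% in the bright windows and 64.0% in all, and the median count of CpG was 27 and 24. The motif set was chosen after values were seen, some motifs hold a CpG, and no test was made. Of the 30 brightest genes, 27 had a window, 21 of these held GGGCGG and 3 held TGACGT.

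Genes of general cell function were taken as 21 lists, 761 genes in all. Of these, 139 (18.3%) were among the brightest 5.00% and 211 (27.7%) lay above the 95th percentile of the silent families, where all genes gave 11.7%. The lists, with 761 of the 13881 genes ranked, supplied 37 of the 100 brightest genes. Their joint median was 7.53, against 6.71 for all genes.

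Machinery that makes and removes proteins was well represented, except for the mitochondrial ribosome. Of 33 proteasome subunits 13 (39.4%) were in the brightest 5.00%, the median was 9.50, and the levels ran from PSMA5 at 15.93, PSMA1 at 15.79 and PSMB4 at 15.73 down to PSME3, an activator subunit, at 4.30. Of 49 translation factors 14 were that bright, led by EIF4G2 at 15.91 and EIF4A2 at 15.51, with EIF2B1 lowest at 2.04. Of 13 aminoacyl-tRNA synthetases 5 were that bright, led by QARS at 13.48 and KARS1 at 13.34. Members of one list thus spanned wide ranges, and the part that probes have in this was not tested. The cytosolic ribosomal proteins did so too, with 7 of 30 in the brightest 5.00% (4 when all probes of a gene were averaged) and a median of 8.12. RPS4X stood at 15.90 and RPL30 at 15.46, and RPL15, another constitutive protein of the large subunit, at 4.39. The list also holds paralogs such as RPL10L, which is among the 7 at 13.50, while RPL10 stood at 8.90. The mitochondrial ribosomal proteins had 2 of 66 (3.03%), under the 5.00% of all genes, and a median of 6.91, led by MRPL21 at 12.11. Ubiquitin conjugation had 4 of 37, led by CUL2, a cullin scaffold of ubiquitin ligases, at 13.34.

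RNA handling and energy supply followed. The spliceosome and RNA-binding list had 18 of 61 in the brightest 5.00% (11 with gene symbols left as the annotation gives them) and a median of 8.99, led by HNRNPAB at 15.86, HNRNPA2B1 at 15.84 and SRSF11 at 14.89. Oxidative phosphorylation had 15 of 64 and a median of 7.43, from COX8A at 15.90 to ATP5MC2, a subunit of the ATP synthase ring, at 3.34. Glycolysis had 5 of 13, led by PKM at 15.82, ALDOC, the aldolase known from brain, at 14.82, and PFKL at 13.26, while the phosphoglycerate kinase PGK1, an enzyme of the same pathway, read 4.25, 3.74 and 3.74. The citrate cycle list had 4 of 12, led by MDH1 at 15.44 and IDH2 at 14.26. MDH1 is the cytosolic malate dehydrogenase and so not an enzyme of the mitochondrial cycle itself. Redox and iron genes had 5 of 19, led by TXN at 15.83, GPX4, which reduces lipid peroxides, at 14.72, and PRDX2 at 12.97.

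The cytoskeleton and the secretory route held single very bright genes over moderate medians. Actin genes had 6 of 22 in the brightest 5.00%, led by TMSB10 at 15.84 and ARPC2 at 14.68, and their list median varied from 7.73 to 9.37 between arrays. Tubulins and microtubule proteins had 4 of 27, led by TUBB2B at 15.74 and TUBGCP2 at 12.68. Annexins and S100 proteins had 3 of 25, namely ANXA1 at 15.82, S100A6 at 15.74 and ANXA4 at 12.05. The secretory list had 13 of 66, led by SEC61B at 15.88 and SEC61G at 15.19, both of the SEC61 channel, and by SEC62 at 14.34. Chaperones had 8 of 81 (9.88%), led by HSPA4 at 15.55 and CCT5 at 15.45, and lysosomal genes had 3 of 40, led by ATP6V1A of the proton pump at 13.93 and LAMP1 at 13.60.

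Cell cycle and replication genes had 3 of 34 (8.82%) in the brightest 5.00%, a share near that of all genes, with cyclin A2 gene CCNA2 at 13.94, and MCM7 and MCM5 of the replicative helicase at 12.22 and 11.88. Histones and HMG proteins had 4 of 37, led by H2AZ1 at 15.71 and HMGB1 at 15.58. Sterol synthesis had 3 of 16, led by MVD at 13.39, MVK at 13.23 and SQLE at 12.97. Of 18 interferon-response genes 0 were in the brightest 5.00% and 0 lay above the silent families, and the brightest was STAT2, a signal transducer of type I interferon, at 9.18.

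**Figure D2:**
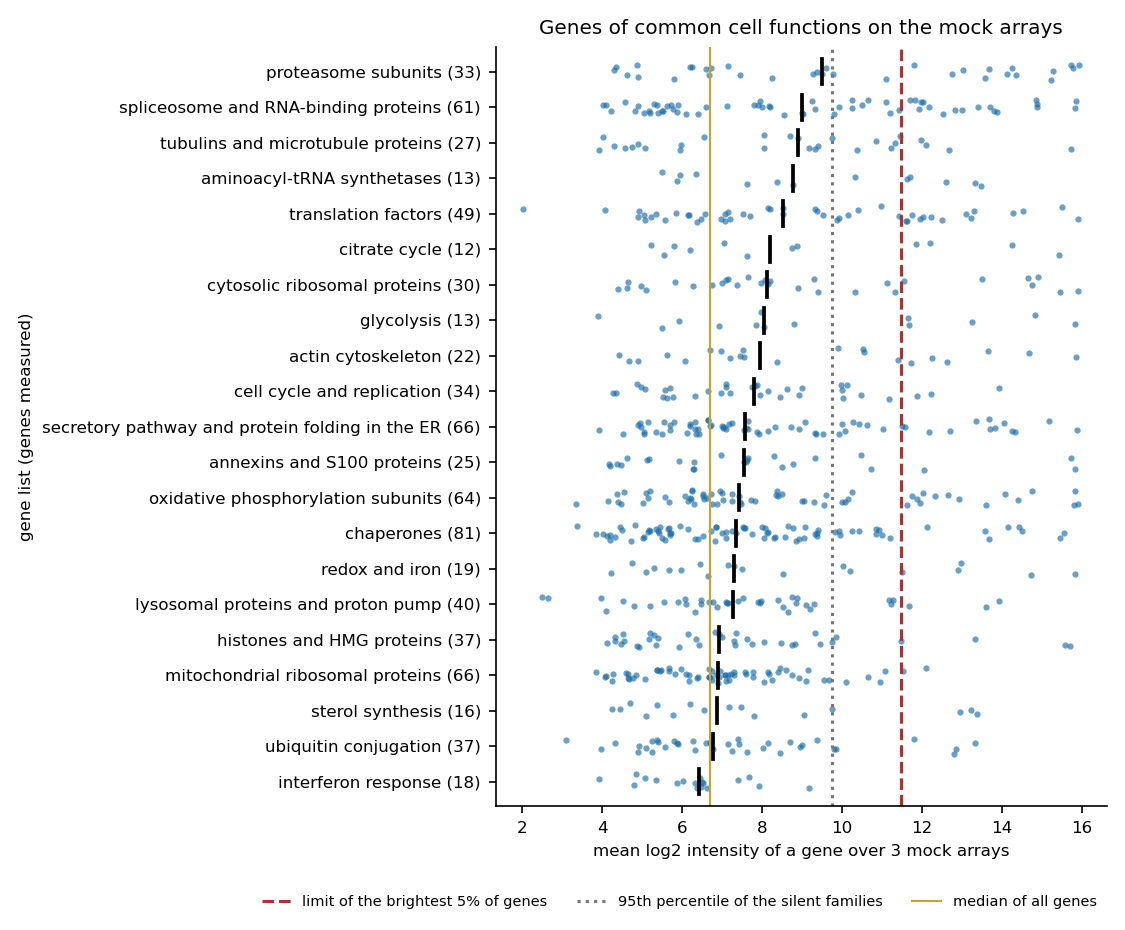
Gene means on the log2 intensity scale for each list of general cell function, with 1 point per gene and the list median marked. Proteasome subunits span 4.30 to 15.93 around a median of 9.50, and the interferon-response genes stay at or below 9.18.

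The label was checked against defining markers of hepatocytes. Which of these genes HepG2 cells themselves use was not examined here, so a low value of a single gene need not go against the label. The lists held plasma proteins, transcription factors, and enzymes with transporters, 74 measured genes in all. Of these, 0 were in the brightest 5.00% of genes, 0 were in the brightest 100, and 2 (2.70%) lay above the 95th percentile of the silent families, where all genes gave 11.7%. Without array 1 that count was 1. Their joint median was 6.69 (6.76, 6.65 and 6.60 on arrays 1, 2 and 3), close to the 6.71 of all genes, and 36 of the 74 lay above that value. Albumin, HNF4A and CEBPA were not analysed here.

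Among 32 plasma proteins the median was 6.90. HPX, hemopexin, which binds free haem, read 9.60, 9.72 and 9.41, the highest of the list. SERPINC1, antithrombin, read 9.45, 9.86 and 9.11, and APOB, the structural protein of low-density lipoprotein, read 8.99, 9.27 and 8.58. All 3 lay under the 95th percentile of the silent families on their means. TTR, the carrier of thyroxine and retinol-binding protein, read 8.15, 7.83 and 7.22, SERPINA1, alpha-1-antitrypsin, read 7.84, 7.10 and 6.94, and the iron carrier TF read 7.15, 6.90 and 6.65. These major secretory products lay between the median of all genes and the level of APOB. APOA1, the main protein of high-density lipoprotein, read 5.63, 7.66 and 8.01, with array 1 far below the others. The fibrinogen chains FGG, FGA and FGB had means of 6.90, 6.80 and 6.56. AHSG, a plasma glycoprotein also called fetuin-A, stood at 6.37, APOA2 at 4.91 and APOH at 3.37, all below the median of all genes.

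The regulators and the metabolic genes gave the same picture. Of 14 hepatocyte transcription factors 1 lay above the silent families, ONECUT1, also known as HNF6, which read 9.90, 9.66 and 10.01. ONECUT2 had a mean of 9.64 and NR0B2, a repressor of bile acid synthesis, 9.35, while the pioneer factors FOXA1 and FOXA2 stood at 7.80 and 6.88. Of 28 enzymes and transporters 1 lay above the silent families, the alcohol dehydrogenase ADH4, which read 10.71, 11.13 and 10.37. PCK1 of gluconeogenesis followed at 8.83 and CYP8B1 of bile acid synthesis at 8.48. The urea cycle gene CPS1 was the dimmest of that list at 3.02, and is named after its values were seen.

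Markers of fetal liver and hepatoma gave 0 of 10 in the brightest 5.00% and 0 above the silent families, with a median of 5.84. AFP, alpha-fetoprotein, the fetal counterpart of albumin, read 6.85, 6.89 and 7.18. GPC3, a cell-surface proteoglycan of hepatocellular carcinoma, had a mean of 7.04 and IGF2BP3, an RNA-binding protein of fetal tissue and tumours, 7.47. S100P had the highest mean of the list, 8.31, but read 6.34, 12.60 and 6.004, so that mean rests on array 2.

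Epithelial genes were likewise dim. Of 27 measured genes of junctions and keratins 0 were in the brightest 5.00% and 1 lay above the silent families, CLDN6, a claudin of embryonic epithelium, at 10.73. The median was 5.51, below that of all genes. The adhesion protein EPCAM read 7.69, 8.02 and 7.34, and CDH1, E-cadherin, read 5.18, 5.58 and 5.32. CLDN3 and CGN, both of tight junctions, had means of 8.53 and 8.30. KRT8 and KRT18 were not analysed here.

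Mesenchymal and matrix markers contained very bright genes. Of 43 measured 7 (16.3%) were in the brightest 5.00% of genes and 11 (25.6%) lay above the silent families, against 11.7% of all genes. When all probes of a gene were averaged, 4 were in the brightest 5.00%. VIM, the intermediate filament vimentin, read 15.27, 15.80 and 15.73, and CDH2, N-cadherin, read 14.96, 14.98 and 14.82. TWIST1, a transcription factor of mesenchyme, read 13.37, 13.21 and 13.55. These 3 genes were high on every array, and VIM and CDH2 were in the brightest 100. LGALS1, galectin-1, stood at 12.49, LOXL1, which crosslinks elastin and collagen, at 12.27, COL6A2 at 12.09 and COL5A2 at 11.80. The list was not bright as a whole, with a median of 7.01. COL1A1, a chain of type I collagen, read 10.14, 10.41 and 9.75, while its partner chain COL1A2 read 4.95, 5.93 and 6.21. FN1, fibronectin, read 6.71, 7.23 and 5.89. FN1 is also a major product of hepatocytes. Whether the bright members of this list, CDH2 among them, are also used by hepatocytes or HepG2 cells was not examined here.

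Neuronal markers were in the bright range no more often than genes in general. The sympathetic and general lists together had 1 of 53 (1.89%) in the brightest 5.00% and 4 of 53 (7.55%) above the silent families, where all genes gave 11.7%. Of 24 sympathetic neuroblast markers 1 (4.17%) was in the brightest 5.00% and 2 lay above the silent families. Their median was 7.68, against 6.71 for all genes, and 14 of the 24 lay above that value of all genes. TH, tyrosine hydroxylase, the rate-limiting enzyme of catecholamine synthesis, read 12.59, 12.62 and 12.25, and ISL1, a transcription factor of sympathetic and motor neurons, read 10.00, 10.08 and 10.16. The receptor kinase ALK had a mean of 9.57, PHOX2A 9.14 and HAND2 8.83, all 3 under the 95th percentile of the silent families, and CHGA, chromogranin A of dense-core granules, stood at 6.62. DBH and MYCN were not analysed here. Of 29 general neuronal markers 0 were in the brightest 5.00% and 2 lay above the silent families, with a median of 6.85. STMN2, a regulator of microtubules in growing axons, read 9.66, 10.86 and 11.17, and NCAM1, a neural adhesion protein, read 10.45, 10.19 and 10.33. MAPT, the microtubule protein tau, had a mean of 9.71, TUBB3 9.33 and GAP43, a growth cone protein, 5.14.

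**Figure D3:**
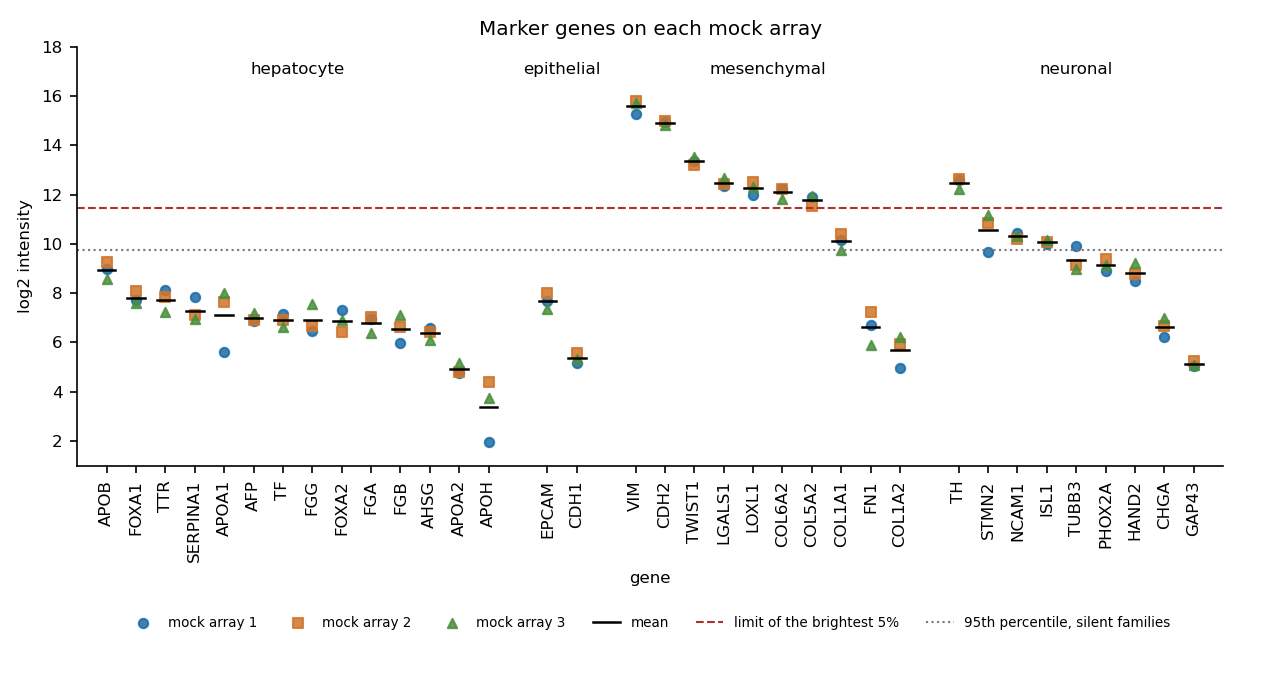
Log2 intensity of a selection of hepatocyte, epithelial, mesenchymal and neuronal markers, with 1 point per control array, a bar at the mean, a dashed line at the limit of the brightest 5.00% of genes (11.47) and a dotted line at the 95th percentile of the silent families (9.76). The hepatocyte and epithelial genes drawn, which do not include ADH4, ONECUT1, CLDN6, HPX or SERPINC1, lie under both lines, while VIM, CDH2, TWIST1, LGALS1, LOXL1, COL6A2, COL5A2 and TH have means above both. The mesenchymal genes drawn include all 7 of the 43 measured that were in the brightest 5.00%, and EPCAM and CDH1 alone stand for the epithelial list. The selection therefore shows a wider contrast than the list medians, 6.90 for hepatocyte plasma proteins and 7.01 for mesenchymal markers.

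Other lineages gave isolated bright members without a bright list. ALPI, the intestinal alkaline phosphatase, stood at 12.43, COL2A1, the collagen of cartilage, at 12.05 and MYH7, a myosin heavy chain of heart and slow muscle, at 11.97, each the single member of its list in the brightest 5.00%. CD3D, a chain of the T cell receptor complex, read 11.07, 11.37 and 11.29 on its brighter probe, while its other probe had a mean of 6.29. TNNT2, cardiac troponin T, had a mean of 11.16 on its brighter probe and of 4.39 on the other. CNP of oligodendrocytes had a mean of 10.68, FOXJ1 of ciliated cells 10.47, CD8A 10.20 and CD14 9.86. Endothelial markers had 0 of 16 above the silent families, with CDH5 highest at 9.52, and neural crest, Schwann and melanocyte markers had 0 of 13, with TFAP2A highest at 9.12. Squamous genes had 0 of 14, with KRT16 highest at 9.15, erythroid genes 0 of 4, with AHSP highest at 8.93, and breast and prostate genes 0 of 8, with TFF1 highest at 8.62. Pluripotency and germ cell genes had 0 of 11, with UTF1 highest at 8.40, and the lowest median of the 20 lineage lists, 4.92. Single bright markers were thus found for tissues of different lineages, and DEFB126 was such a gene among the silent families.

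The measured markers thus did not bear out the label, and they did not settle another one. The hepatocyte lists were not fitted to what HepG2 cells use, which limits this check. None of the 84 measured hepatocyte and fetal liver genes was in the brightest 5.00%. That was not particular to them, since general neuronal (0 of 29), leukocyte (0 of 23) and endothelial markers (0 of 16) had none there either. The lineage list with most members there was the mesenchymal one, with 7 of 43, or 4 when all probes of a gene were averaged. The medians of hepatocyte plasma proteins and mesenchymal markers were close, 6.90 and 7.01. Over the 20 lineage lists the medians ran from 4.92 to 7.73, with 7.68 for sympathetic neuroblast markers. Levels of different probes do not rank transcripts. The cells are called control cells here. The brightest single lineage markers were VIM, CDH2, TWIST1, LGALS1, TH and ALPI, of which TH and ALPI were each the only member of their list in the brightest 5.00%. Of the general cell function genes 18.3% were in the brightest 5.00% on the same table, while the constitutive PGK1 and RPL15 read as low as the dimmer hepatocyte genes. What part the probes have in the low hepatocyte values was not tested.

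Probes of one gene can be compared where a gene has several. Such genes were 12.1% of all (1674) and 22.5% of the brightest 5.00% (156), a difference that taking the brightest probe favours by its construction. Over all 1674 the median gap between the brightest and dimmest probe was 1.73 on the log2 scale. Over the 28 such genes in the brightest 100 it was 7.71, which is larger by construction because these genes were ranked by their brightest probe, and for 9 of them the dimmest probe lay below the median of the silent families. TXN read 15.83 on its brighter probe and 4.43 on the other, H2AZ1 15.71 and 4.52, and HNRNPA2B1 15.84 and 4.72. All 3 are constitutive genes. Marker genes differed too, with TWIST1 at 13.38 and 8.19, LGALS1 at 12.49 and 7.41, COL6A2 at 12.09 and 9.72, and, among hepatocyte genes, SERPINC1 at 9.47 and 5.41, APOB at 8.95 and 4.70, TTR at 7.73 and 5.76 and SERPINA1 at 7.29 and 4.83. VIM, CDH2 and TH were each read by 1 probe, so no other reading bears on their levels.

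**Figure D4:**
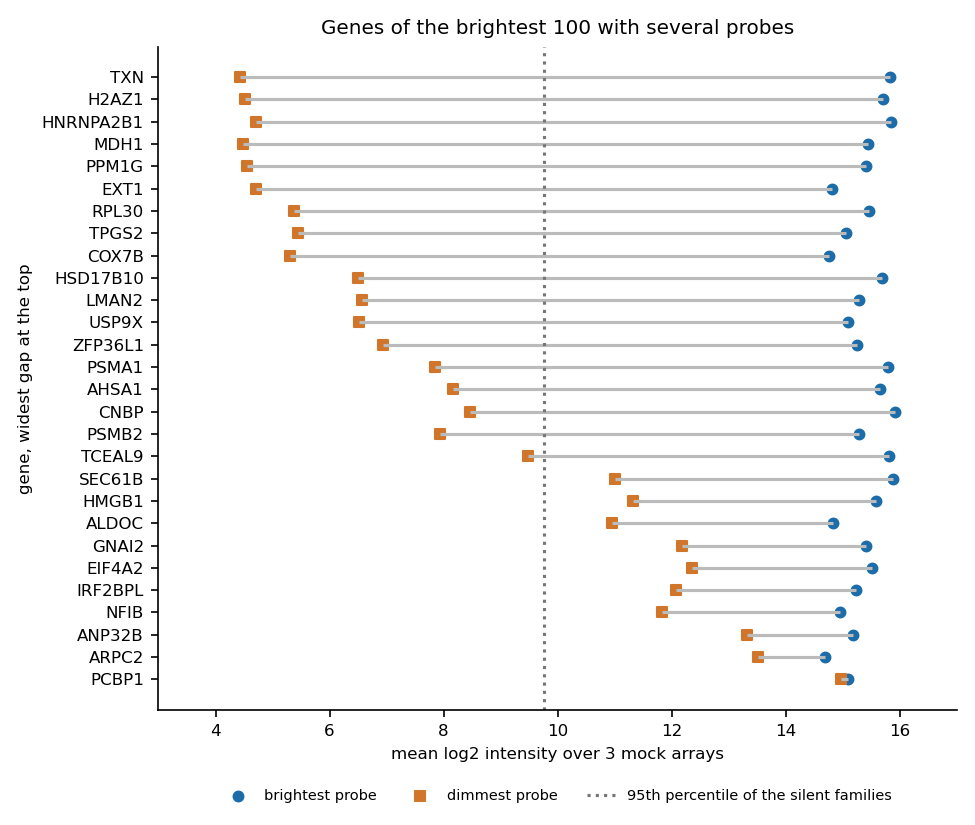
Mean log2 intensity of the brightest and the dimmest probe of the genes among the 100 brightest that have several probes. The gap reaches 11.40 for TXN, and its median over the 28 genes is 7.71.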

How the data were processed

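One-colour Cy5 intensity values for each probe were taken as deposited by the authors in the series' value table, whose values are linear and not log-transformed. The submitters' processing notes name limma, with no steps; background correction, normalization, scanner and detection calls were not stated in any source read here. The 3 arrays held equal values at most of their highest ranks and near-equal ones at many others, so array totals are not independent. From these values the log2 of each intensity was computed, with no further normalization or offset, for the 3 arrays titled Mock. Probes were named through the platform annotation, with 2100 symbols updated through RefSeq and 58 kept that are not current. Probes without a symbol (11911) were left out. Each gene was read from its brightest probe by the control mean. Genes were ordered by that mean, and lists were described by counts and medians with no test, since there is 1 group. The precision is limited by the number of arrays.

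The arrays, gene lists, classes and motifs were chosen with earlier results of these data known. Genes were named from a rule, of which the text names a part: the 30 brightest, the 3 brightest of each lineage list, the 3 brightest and the dimmest of each function list, defining markers, the 10 with the largest SD among the brightest 5%, those beside the limit, and those whose probes differed most among the brightest 100. Other genes named, such as those given to show low values within a list, were chosen after their values were seen. Sequence features of proteins were not analysed here. The ranking and the choice of the brighter probe were tested on simulated data, and the motif search on short made-up sequences. The list counts were not tested in this way. Alternatives covered the probe choice, normalization, offset, mean or median, symbols, limits and leaving out each array. Python 3.11.15, pandas 2.3.3, numpy 2.4.6 and matplotlib 3.10.9 were used.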

Additional observations from a re-analysis of the deposited data

How the results depend on the processing

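No paired analysis was possible because the results come from 1 group and from no test. Of the group results recomputed under the alternatives, 167 stayed within their limit and 25 moved. The limit was 1 SD between arrays or, for counts, 1.5 times the count reported. For the median SD per gene it was the SD of its values with each array left out. For the shares of the 9 motifs it was the exact binomial interval of the share in the brightest 5%. Direction was not judged, since there is 1 group. With the mean of all probes of a gene, 74 of the 100 brightest genes were kept (90 with symbols as given), APOB fell from percentile 82.5 to 54.6, the mesenchymal list had 4 members in the brightest 5% in place of 7 and the cytosolic ribosomal list 4 in place of 7, the median percentile was 61.2 in place of 66.8 for sympathetic neuroblast markers and 29.0 in place of 28.0 for epithelial genes, and 10.2% of genes lay above the silent families. An offset of 50 lowered the median SD to 0.21, by its construction. The median of the arrays put 12.03% of genes above the silent families. With symbols as given, the epithelial percentile was 25.4 and the spliceosome list had 11 bright members in place of 18, since fewer symbols matched. With the brightest 10% as the limit, the hepatocyte lists had 1 member, the mesenchymal list 11, the neuroblast list 2, and TGACGT was in 13.3% of windows. With the 99th percentile of the silent families, 0 hepatocyte, 7 mesenchymal and 1 neuroblast genes lay above it, and 5.49% of all genes. Leaving out each array gave 1 to 2 hepatocyte genes above the silent families (1 without array 1), 10.9% to 11.7% of genes above them, a median SD of 0.26 to 0.31 and an epithelial percentile of 26.0 to 29.5. With an array left out the SD is taken over fewer arrays, which tends to lower its median by construction. The cause of the other moves was not tested. Depth is not a property of arrays; signal over background was not given, so the order among dim genes is uncertain.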

Other observations

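Large readings on 1 array alone were rare. In 7 of 13881 genes the highest array stood at least 4 log2 units above the next, and 0 of these were among the brightest 5% of genes. ATP1B4, a muscle protein related to the beta subunits of the sodium pump, read 3.06, 2.64 and 9.74, and TPM1, a tropomyosin of actin filaments, read 10.09, 4.40 and 3.74. DCAF12L1 read 11.17, 5.26 and 5.86, and ANKMY1 read 6.72, 7.47 and 12.09. The high reading was on array 1 for 4 of the 7 genes, on array 2 for 1, S100P, and on array 3 for 2. A mean over 3 arrays hides such readings, so these genes have no settled level in the control cells.

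Immediate early and nuclear factor genes were also found among the 100 brightest, chosen after their values were seen. EGR1, a zinc-finger factor induced by serum, read 15.91, 15.63 and 15.04, with array 3 lowest. NFIB and NFIX, transcription factors of the nuclear factor I family, had means of 14.96 and 14.70.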
